A study of Mus musculus with 80 samples.

Results

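Translation initiation factors are the proteins that bring the small ribosomal subunit, the initiator methionyl-tRNA and an mRNA together at a start codon. They were taken as every protein-coding gene of the deposited expression tables whose name begins Eif1 to Eif6, without the eIF4E-binding proteins (Eif4ebp) and the eIF2 kinases (Eif2ak). This gave 45 of the 11068 genes of the female table and 48 of the 12853 genes of the male table. The 45 stand in both tables, and Eif2s3y (on the Y chromosome), Eif5a2 and Eif4a3l2 stand in the male table only. By complex, 4 belong to eIF2 (3 in females), 5 to eIF2B, 14 to eIF3, 10 to the eIF4 group and 15 to other steps (13 in females).

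Muscle RNA was sequenced from the gastrocnemius of the calf in female and male C57BL6/J mice. Hindlimb unloading, in which the hind legs bear no weight and the calf muscles waste, had lasted 24, 48, 72 or 168 h, and control mice at 0 h were not unloaded. Females numbered 8 at 0, 24, 48 and 72 h and 7 at 168 h, and males 7, 8, 9, 9 and 8 at 0, 24, 48, 72 and 168 h. Age is not given in the sources used here. Each library was taken as 1 mouse, which the labels do not state, so the p-values measure the spread between libraries. The question was whether, when and in which complexes the initiation factor transcripts moved, and whether the course differed between the sexes.

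The eIF2 complex carries the initiator tRNA to the ribosome with GTP, and eIF2B reloads eIF2 with GTP after each round. The large eIF3 complex sits on the small subunit and holds other factors there. The eIF4 group recognises the cap of the mRNA (eIF4E), bridges it to the ribosome (eIF4G) and unwinds it (eIF4A with eIF4B or eIF4H). Translation is a major site of control of muscle mass, because a muscle that loses its load makes less protein as well as breaking down more.

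The values are a normalised signal per gene (reads divided by a factor for the library). The tables were normalised apart, so only changes within a table are set side by side. Estimated depth was 5.57 to 50.5 M reads per female library and 18.0 to 49.7 M per male library, and the female groups at 24, 72 and 168 h were shallower (medians 9.53, 6.21 and 16.9 M) than those at 0 and 48 h (33.8 and 39.4 M). Of the female libraries 7 had a median rank correlation with their group under 0.95 (0 h replicate 7, 24 h replicates 1 and 2, 48 h replicate 5, 72 h replicates 2 and 5 and 168 h replicate 7). The sample numbers in the titles also run in sets. Female 0 and 48 h libraries share a set and female 24, 72 and 168 h libraries another. In males the 24 h libraries run with 8 of the 9 at 48 h, the remaining 48 h library with 7 of the 9 at 72 h, and the 0 h and 168 h libraries with the other 2 at 72 h. What a set stands for is not given, and for females at 24, 72 and 168 h set and time cannot be told apart. The comparisons that stay within a set are female 48 h and male 168 h, each against 0 h. Of the members 9 overlap a gene on the other strand (Eif2b4, Eif3d, Eif3j1, Eif3m, Eif4a2, Eif1ad, Eif2a, Eif4enif1 and Eif5b), and reads of such pairs may be mixed.

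Muscle fibre markers were by far the most abundant of the marker genes in every group (summed signal 996710 to 4996900 over all libraries), none of the 4 neutrophil markers was measured, and macrophage markers were called in at most 1 of 6 genes at any time. Other lists moved with time in places. All 5 red blood cell markers were lower in females at 72 h (summed signal 6294 to 13485, against 9739 to 31954 at 0 h), and 3 of 4 tenocyte markers were lower in females at 48 h (1440 to 6690) and at 72 h (2378 to 4814, against 3680 to 9730 at 0 h). Lower too were 3 of 5 fibro-adipogenic progenitor markers in females at 48 h and the 3 measured smooth muscle markers in males at 48 h (1687 to 2981, against 1921 to 3844 at 0 h). Their part in the results was not tested, and fewer cells of a type and less RNA per cell cannot be told apart in whole muscle.

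At 48 h of unloading most initiation factor transcripts rose in both sexes, by amounts that were small for single genes, while the transcript of the cap-binding protein Eif4e fell. A member was called when limma's moderated test gave an adjusted p under 0.05 over all genes of the table. In females 21 of 45 members rose and 1 fell at 24 h, where 24.7% of all genes were called. At 48 h 27 rose and 1 fell (38.1% of all genes called), at 72 h 24 rose and 1 fell (30.0%), and at 168 h 5 rose and none fell (10.7%). With array weights, which count deviant libraries less, 20 female members rose and 2 fell at 168 h, where 28.2% of all genes were called. In males 29 of 48 rose and 1 fell at 24 h (29.1% of all genes called), 30 rose and 1 fell at 48 h (31.0%), 14 rose and none fell at 72 h (10.8%), and 22 rose and 1 fell at 168 h (22.5%). Of all genes 13.8%, 21.0%, 16.8% and 6.3% rose in females at the 4 times, where 11.1% of the members rose at 168 h. In males 14.8%, 16.3%, 5.61% and 11.0% of all genes rose. The members are abundant genes, and with only genes of a mean signal of at least 500 in the test, 51.3%, 66.7%, 59.0% and 12.8% of 39 female members rose, against 21.6%, 31.0%, 26.5% and 10.4% of all such genes, so that females at 168 h were near that share. In males 65.2%, 65.2%, 30.4% and 47.8% of 46 members rose, against 20.9%, 22.8%, 8.57% and 16.9%. Genes that fell made up 10.9%, 17.1%, 13.2% and 4.38% of all genes in females and 14.4%, 14.7%, 5.22% and 11.5% in males. Without the 7 female libraries that stand apart, 26, 32, 34 and 10 female members were called at 24, 48, 72 and 168 h, and the share of all genes called was larger too (3098, 5277, 4430 and 1419 of 11068 genes). At 168 h 1 of those 10 fell.

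The median log2 change over the members was 0.30, 0.45, 0.35 and 0.21 in females. It was 0.26, 0.28, 0.15 and 0.21 in males at 24, 48, 72 and 168 h, the same 4 times. Over all genes it was 0.06, 0.06, 0.03 and 0.05 in females and 0.01, 0.01, 0.00 and 0.00 in males. Genes with a mean signal of at least 500 had medians of 0.12, 0.13, 0.10 and 0.09 in females and 0.04, 0.04, 0.01 and 0.03 in males. Taken library by library, the median over the members was above every 0 h library in all unloaded females at 24, 48 and 72 h and in all males at 24 and 168 h. Unloaded females ranged from 0.23 to 0.49 at 24 h, 0.21 to 0.77 at 48 h, 0.21 to 0.68 at 72 h and 0.08 to 0.24 at 168 h, around -0.08 to 0.15 at 0 h. Unloaded males ranged from 0.22 to 0.32 at 24 h, 0.07 to 0.57 at 48 h, 0.05 to 0.22 at 72 h and 0.14 to 0.26 at 168 h, around -0.08 to 0.12 at 0 h. The widest groups were those at 48 h, where 2 of the 8 females (0.76 and 0.77) and 1 of the 9 males (0.57) stood above the rest.

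**Figure D1:**
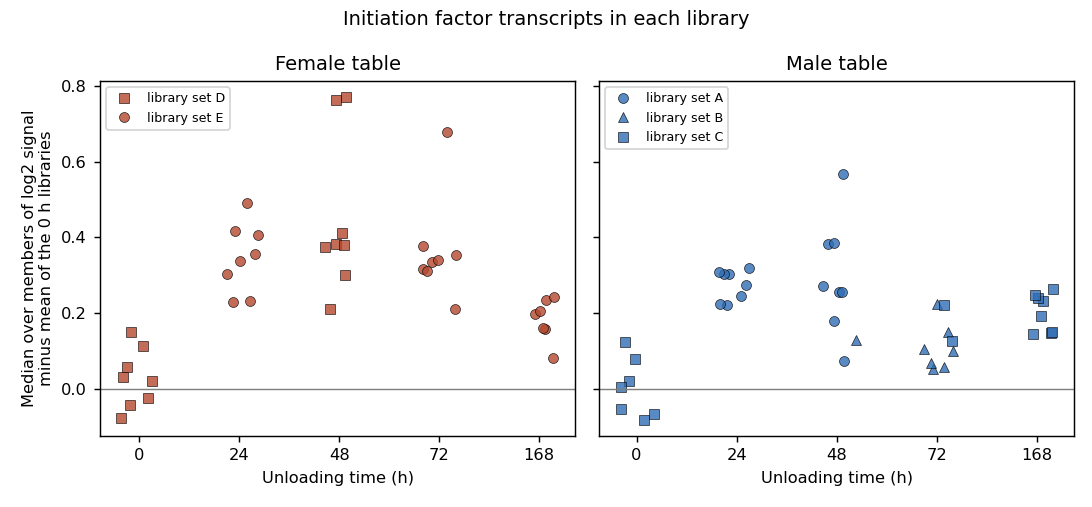
Each point is 1 library, and the vertical axis is the median over the initiation factors of the log2 signal less the mean of the 0 h libraries of the same table, with females on the left and males on the right, by unloading time. Symbols mark the library sets. The female 48 h libraries (0.21 to 0.77) and the male 168 h libraries (0.14 to 0.26) lie above all 0 h libraries of their own set.

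The male calls at 24 and 48 h rest on a comparison between sets. With the set as a term of the model, the set effect between those libraries and the controls is carried by a single 48 h library and by the 72 h libraries. The median change over the members was then 0.21, 0.24, 0.18 and 0.21 at 24, 48, 72 and 168 h, close to the values above, but limma called 0, 0, 5 and 23 of the 48 members. At 24 and 48 h, 5 and 7 members had an unadjusted p under 0.05, as did 1316 and 1419 of all 12853 genes. At 24 h the members were thus near the share of all genes. By adjusted p, 4 and 37 of all genes were called at these times. At 72 and 168 h 557 and 2858 of all 12853 genes were called. The 48 h library of the second set had a median member change of 0.13, inside the range of the 72 h libraries of that set (0.05 to 0.22). It was also inside the range of the other 48 h libraries (0.07 to 0.57), so set and time cannot be told apart from this 1 library.

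Across all 5 times, the moderated F test called 26 of 45 members in females, where 43.2% of all genes were called, and 36 of 48 in males (37.2%). Of the members, 37 rose in at least 1 of the 8 comparisons with 0 h and Eif4e was the only one that fell in any. Eif3b, Eif3c, Eif3e and Eif4b rose in all 8. No comparison called the remaining 10, namely Eif1a, Eif1ad, Eif1ax, Eif2d, Eif2s1, Eif3k, Eif4a3l2, Eif4e3, Eif4g2 and Eif5a2. How many of all genes were called in at least 1 of the 8 comparisons, or in all 8, was not counted. Single comparisons called 10.7% to 38.1% of all genes in either direction. Members higher in females in the authors' deposited table numbered 23, 29, 27 and 6 (28.7%, 44.4%, 33.0% and 14.8% of all genes past the same threshold in either direction). In the authors' deposited table of males the numbers were 30, 30, 14 and 22 (30.3%, 32.2%, 12.5% and 23.8%), with 1 lower at each time but female 168 h and male 72 h. The unloaded and 0 h libraries did not overlap for 9, 14, 7 and 2 members in females (6.16%, 13.8%, 7.42% and 4.25% of all genes) and for 14, 13, 4 and 9 in males (8.21%, 6.2%, 1.74% and 4.52%).

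**Figure D2:**
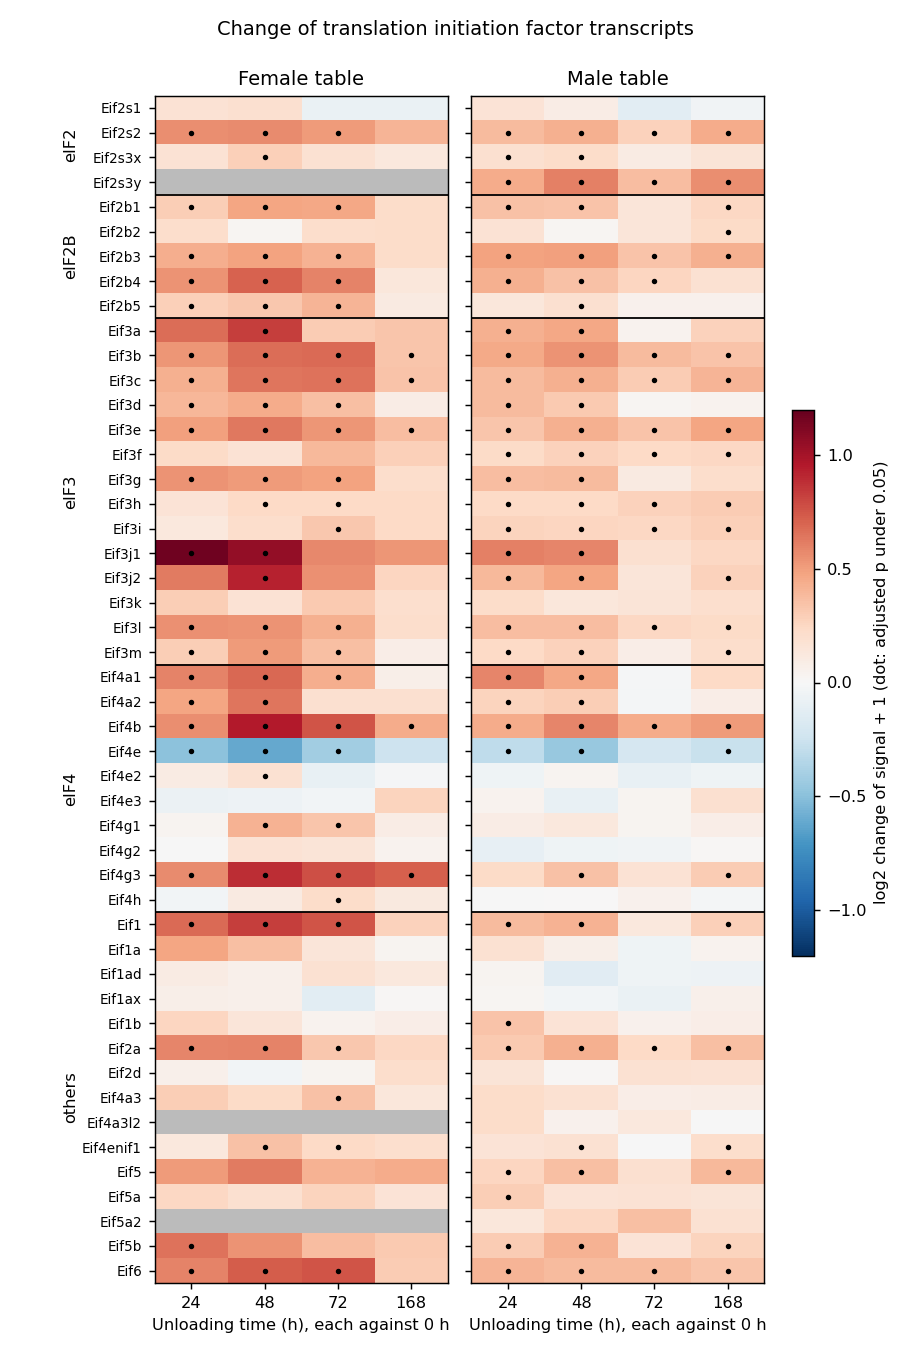
The map shows the log2 change against 0 h for each initiation factor (rows, grouped by complex) at each unloading time (columns), with females on the left and males on the right. Dots mark an adjusted p under 0.05 and grey marks genes that are not in the female table. Red rows fill most of eIF3, while Eif4e is blue in every column, from -0.61 in females at 48 h to -0.20 in males at 72 h.

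Within the eIF4 group the transcripts moved in different directions. The cap-binding protein itself fell, the eIF4A helicases and their helper Eif4b rose, and the scaffolds split. Eif4e (ENSMUSG00000028156, chromosome 3, 138231940 to 138265458 in the tables' coordinates) encodes the protein that grips the mRNA cap and is the target of the eIF4E-binding proteins. In females its signal was 1229 to 1663 (median 1523) at 0 h, 935 to 1205 (median 1047) at 24 h, 776 to 1137 (median 971) at 48 h, 886 to 1337 (median 1076) at 72 h and 956 to 1672 (median 1154) at 168 h. Male Eif4e signal was 3054 to 4088 (median 3620) at 0 h, 2528 to 3181 (median 2866) at 24 h, 2241 to 2860 (median 2630) at 48 h, 2673 to 3656 (median 3036) at 72 h and 2319 to 3303 (median 3008) at 168 h. Each unloaded female library at 24 and 48 h and each male library at 48 h lay below all controls of the table, and the female 168 h group reached from below the control range to above it. The log2 changes in females were -0.50 ± 0.11, -0.61 ± 0.11, -0.41 ± 0.11 and -0.25 ± 0.11 (SE) at 24, 48, 72 and 168 h, with adjusted p of 0.000677, 2.1e-05, 0.00287 and 0.153. In males they were -0.31 ± 0.08, -0.45 ± 0.07, -0.20 ± 0.07 and -0.27 ± 0.08, with adjusted p of 0.00226, 1.35e-05, 0.0674 and 0.00878. The fall was therefore called at 24, 48 and 72 h in females and at 24, 48 and 168 h in males, and both comparisons that stay within a set are among them. With the library set as a term the male changes were -0.18, -0.34, -0.21 and -0.27, of which that at 168 h was called (adjusted p = 0.0103).

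The scaffold of the cap-binding complex behaved otherwise. Eif4g1, the main eIF4G, had a female signal of 8900 to 10224 (median 10050) at 0 h, 6270 to 12826 (median 11054) at 24 h, 11331 to 16379 (median 13016) at 48 h, 11310 to 13599 (median 12337) at 72 h and 8596 to 11476 (median 10375) at 168 h. In females it rose at 48 h by 0.42 ± 0.11 (adjusted p = 0.00292) and at 72 h by 0.34 ± 0.11 (adjusted p = 0.0184), with all libraries above the controls at both times. At 24 h its change was 0.03 ± 0.11. Replicates 1 and 2 there, both libraries that stand apart, were under every control (6520.5 and 6270.5), and the other 6 were above every control. Without the libraries that stand apart Eif4g1 was called at 24 h too (0.25, adjusted p = 0.0227). In males Eif4g1 signal was 20949 to 22751 (median 22202) at 0 h, 20386 to 25940 (median 23739) at 24 h, 22466 to 26415 (median 23427) at 48 h, 19920 to 24093 (median 22500) at 72 h and 18833 to 26420 (median 23663) at 168 h. The male groups overlapped at every time, the changes lay between 0.03 and 0.12, and none was called. Its relative Eif4g3 rose more. Eif4g3 signal in females was 2209 to 3411 (median 2659) at 0 h, 2914 to 5471 (median 3954) at 24 h, 4345 to 6556 (median 4902) at 48 h, 3482 to 5731 (median 4594) at 72 h and 3538 to 5527 (median 4568) at 168 h, so the medians at 48 to 168 h were well above the control median and the groups did not overlap at those 3 times. The female changes were 0.56 ± 0.11, 0.89 ± 0.11, 0.78 ± 0.11 and 0.72 ± 0.12, with adjusted p of 0.000386, 2e-07, 3.1e-06 and 6.11e-05. In males the signal was 7215 to 9603 (median 8502) at 0 h, 7262 to 12314 (median 10381) at 24 h, 9855 to 12308 (median 10457) at 48 h, 7876 to 11870 (median 9961) at 72 h and 7657 to 13246 (median 10991) at 168 h, and Eif4g3 was called at 48 h (0.35 ± 0.09, adjusted p = 0.00375) and 168 h (0.30 ± 0.10, adjusted p = 0.0189). The call at 168 h ended without 0 h replicate 4 (adjusted p = 0.0567). Eif4g2, an eIF4G relative that does not bind eIF4E, was called at no time, with changes from -0.01 to 0.17 in females and -0.10 to 0.02 in males.

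The eIF4A helicases rose early and were not called at 168 h. Eif4a1, the widespread form, had a female signal of 567 to 685 (median 608) at 0 h, 638 to 1254 (median 931) at 24 h, 723 to 1936 (median 914) at 48 h, 639 to 1464 (median 779) at 72 h and 589 to 725 (median 629) at 168 h. Male Eif4a1 signal was 1133 to 1426 (median 1200) at 0 h, 1476 to 2426 (median 1909) at 24 h, 1400 to 2475 (median 1638) at 48 h, 1113 to 1482 (median 1234) at 72 h and 1291 to 1687 (median 1437) at 168 h. Each female library at 48 h and each male library at 24 h was above all controls, whereas the female values at 168 h and the male values at 72 h overlapped the control range. The changes were 0.59, 0.69, 0.44 and 0.07 in females, called at 24, 48 and 72 h (adjusted p of 0.00474, 0.000578 and 0.0304). In males they were 0.59, 0.47, -0.02 and 0.24, called at 24 and 48 h (adjusted p of 1.79e-05 and 0.000222). Without female 72 h replicate 4, whose 1464 was far above the others of its group, the female change at 72 h was not called (0.32, adjusted p = 0.104). Eif4a2, the form that predominates in muscle, was the larger pool. Per kilobase of exon, Eif4a1 made up a median of 11.6% of the summed Eif4a1 and Eif4a2 signal in control females and 9.91% in control males. Eif4a2 signal in females was 3602 to 6419 (median 5995) at 0 h, 6680 to 8901 (median 7739) at 24 h, 7292 to 11245 (median 8071) at 48 h, 3362 to 9459 (median 6557) at 72 h and 4904 to 7540 (median 6260) at 168 h. Male Eif4a2 signal was 13119 to 15407 (median 13674) at 0 h, 15355 to 18908 (median 16729) at 24 h, 14375 to 28140 (median 16829) at 48 h, 11709 to 15848 (median 14267) at 72 h and 12973 to 16998 (median 15034) at 168 h. All female libraries at 24 and 48 h lay above the controls. It was called at 24 h (0.47 in females, 0.27 in males) and 48 h (0.64 in females, 0.30 in males) and at neither later time. The male call at 24 h ended without 0 h replicate 4 (adjusted p = 0.0592), and with the library set as a term the male change at 24 h was -0.02.

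Eif4b, which stimulates eIF4A and is a substrate of S6 kinase, rose throughout. In females its signal was 3269 to 3961 (median 3619) at 0 h, 3596 to 6630 (median 5803) at 24 h, 6102 to 8593 (median 6745) at 48 h, 4480 to 7690 (median 6318) at 72 h and 3700 to 6163 (median 4846) at 168 h. Male Eif4b signal was 8041 to 9989 (median 9318) at 0 h, 10231 to 13587 (median 12529) at 24 h, 12222 to 14985 (median 13967) at 48 h, 9073 to 13485 (median 13034) at 72 h and 9926 to 15471 (median 13498) at 168 h. All female libraries at 48 and 72 h and all male libraries at 24 and 48 h exceeded every control. Eif4b was called at every time in both sexes. Female Eif4b changes were 0.56 ± 0.12, 0.95 ± 0.12, 0.75 ± 0.12 and 0.45 ± 0.12 (adjusted p of 0.000683, 1.36e-07, 9.89e-06 and 0.0146). Male Eif4b changes were 0.45 ± 0.08, 0.59 ± 0.08, 0.44 ± 0.08 and 0.51 ± 0.08 (adjusted p of 7.78e-05, 7.67e-07, 0.000249 and 2.58e-05). Its counterpart Eif4h was called only in females at 72 h (0.22, adjusted p = 0.0326, and 0.0783 without 72 h replicate 4), and male changes were within -0.02 to 0.06. Of the other cap-binding relatives, Eif4e2, a repressor that binds caps without eIF4G, was called only in females at 48 h (0.19, adjusted p = 0.0225, and 0.0625 without 0 h replicate 8). Eif4e3 was called at no time.

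**Figure D3:**
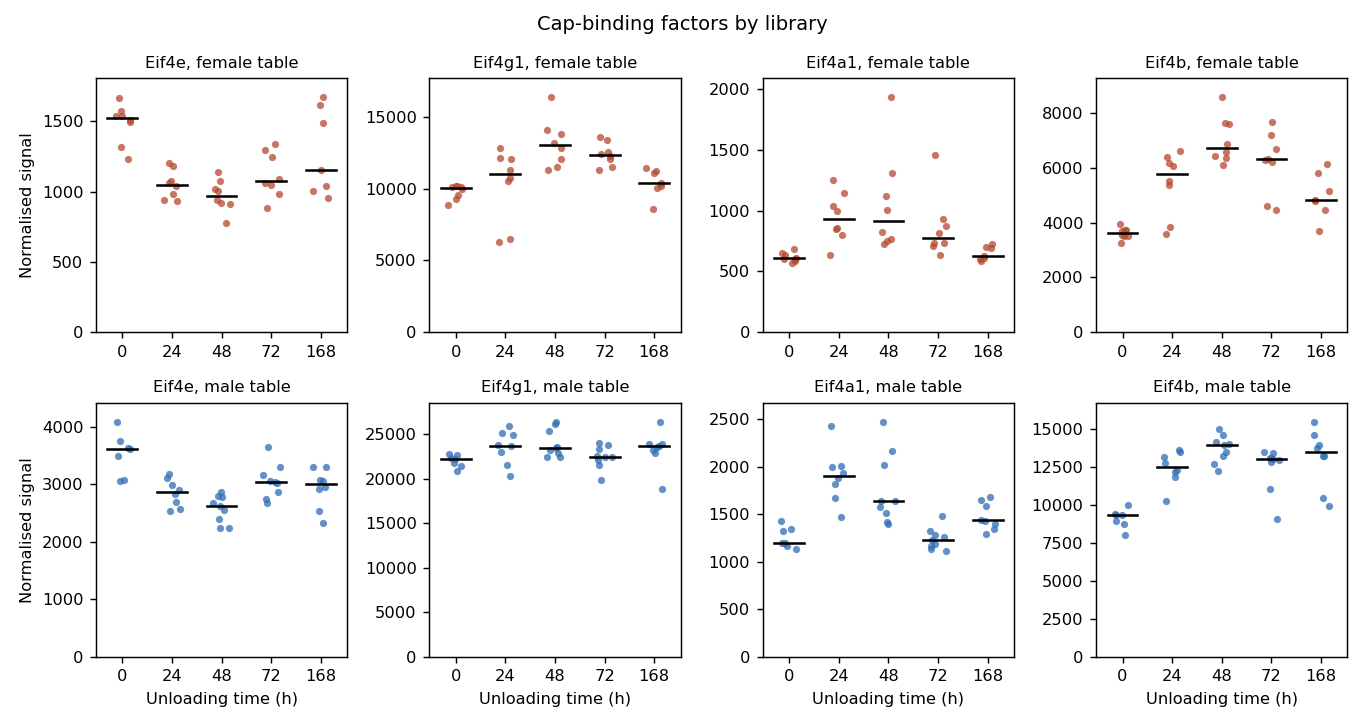
Each point is the normalised signal of 1 library (vertical axis, from 0, scaled per panel) by unloading time, for the cap-binding protein Eif4e, the scaffold Eif4g1, the helicase Eif4a1 and its helper Eif4b, with females above and males below. Bars are medians. Eif4e is lowest at 48 h in both sexes (medians 971 in females and 2630 in males), the time at which Eif4b is highest (6745 and 13967).

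The promoters printed are those of Eif4e and of its partners Eif4g1 and Eif4a1, whose windows held the letters CACGTG. They are the 250 bases before a RefSeq transcription start (GRCm38.p6), read 5′ to 3′ on the strand of the gene, and the capitals mark CACGTG, the E-box letters bound by MYC and TFE family factors. The windows lie at chr3:138527018-138527267 (plus strand), chr16:20672477-20672726 (plus strand) and chr11:69672424-69672673 (minus strand) for Eif4e, Eif4g1 and Eif4a1.
Eif4e: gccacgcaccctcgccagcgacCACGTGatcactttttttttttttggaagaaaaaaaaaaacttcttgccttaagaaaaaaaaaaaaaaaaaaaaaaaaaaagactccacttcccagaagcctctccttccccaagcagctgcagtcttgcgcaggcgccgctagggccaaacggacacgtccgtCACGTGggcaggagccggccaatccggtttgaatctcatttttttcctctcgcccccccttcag
Eif4g1: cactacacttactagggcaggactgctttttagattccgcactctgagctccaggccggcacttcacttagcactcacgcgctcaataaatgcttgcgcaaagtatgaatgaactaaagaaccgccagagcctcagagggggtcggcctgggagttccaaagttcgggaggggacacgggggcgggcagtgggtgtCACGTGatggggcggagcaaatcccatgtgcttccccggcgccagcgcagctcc
Eif4a1: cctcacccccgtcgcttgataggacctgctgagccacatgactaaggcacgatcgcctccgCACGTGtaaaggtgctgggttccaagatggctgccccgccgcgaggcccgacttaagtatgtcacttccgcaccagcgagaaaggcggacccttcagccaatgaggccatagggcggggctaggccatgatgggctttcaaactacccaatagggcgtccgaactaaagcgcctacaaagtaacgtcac
Only windows that held the letters were printed, and a start of these genes whose window lacked them would not be shown. In the printed windows CACGTG occurred 2 times for Eif4e and 1 time each for Eif4g1 and Eif4a1. Of the 48 members 38 had a promoter in the RefSeq table, with 50 windows, and 22.0% of those windows held CACGTG (9 members: Eif1b, Eif3f, Eif3k, Eif4a1, Eif4e, Eif4g1, Eif4h, Eif5a and Eif5a2), against 6.02% of all 32851 windows. Of these 9 holders Eif4e fell, Eif3k and Eif5a2 were called in no comparison, and the others rose in at least 1. Eif4b, Eif4g3 and Eif4a2, which rose, were not among the holders, for lack of the letters or of a promoter. The shares of all windows were not limited to abundant genes, and a part of the letters in the changes was not tested. Another 6 motifs were searched on both strands. They were CCGGAAG (ETS family, 22.0% of member windows and 6.91% of all), the NRF1 palindrome (2.0% and 0.782%), AAGATGGCG (YY1, 0% and 0.606%), TGACGTCA (CRE, 0% and 1.55%), TGATGNAA (ATF4 composite, 2.0% and 3.45%) and GTAAACA (FoxO, 2.0% and 3.17%). None of these motifs contains the letters of another, and a match describes the sequence, not binding.

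Transcripts of most eIF3 subunits rose in both sexes. In females 8, 11, 9 and 3 of its 14 transcripts were called higher at 24, 48, 72 and 168 h, and none was lower. In males 13, 13, 7 and 9 of 14 were called higher at the same times, and none was lower. Of all genes 13.8%, 21.0%, 16.8% and 6.3% rose in females and 14.8%, 16.3%, 5.61% and 11.0% in males. The median change over eIF3 was 0.46, 0.52, 0.41 and 0.25 in females and 0.37, 0.38, 0.21 and 0.26 in males. Eif3b (ENSMUSG00000056076, chromosome 5, 140405083 to 140429116), a scaffold that binds Eif3a, had a female signal of 1090 to 1476 (median 1262) at 0 h, 1589 to 2429 (median 1694) at 24 h, 1511 to 2834 (median 1997) at 48 h, 1723 to 2648 (median 2005) at 72 h and 1404 to 1794 (median 1539) at 168 h. In males its signal was 2565 to 2934 (median 2736) at 0 h, 3541 to 4132 (median 3770) at 24 h, 3542 to 4501 (median 3938) at 48 h, 3324 to 3913 (median 3550) at 72 h and 3257 to 3810 (median 3433) at 168 h, and each unloaded male library at any of the 4 times exceeded every control. Female libraries exceeded every control at 24, 48 and 72 h. Female Eif3b changes were 0.53 ± 0.11, 0.67 ± 0.11, 0.68 ± 0.11 and 0.33 ± 0.11 at 24, 48, 72 and 168 h (adjusted p of 0.000409, 6.47e-06, 7.57e-06 and 0.0461). Male Eif3b changes were 0.46 ± 0.05, 0.54 ± 0.05, 0.38 ± 0.05 and 0.34 ± 0.05 (adjusted p of 7.77e-08, 1.51e-09, 4.18e-06 and 1.24e-05). The female call at 168 h ended without 168 h replicate 5 (adjusted p = 0.104).

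Eif3c (ENSMUSG00000030738, chromosome 7, 126145627 to 126165584), the core subunit that contacts Eif1 and Eif5, had the smallest course p of any member in females. Its signal was 1826 to 2444 (median 2235) at 0 h, 2503 to 3289 (median 2930) at 24 h, 2894 to 4209 (median 3284) at 48 h, 2822 to 4144 (median 3327) at 72 h and 2487 to 2981 (median 2863) at 168 h in females. Male Eif3c signal was 4526 to 5133 (median 4724) at 0 h, 5498 to 6937 (median 6110) at 24 h, 5835 to 7113 (median 6235) at 48 h, 5347 to 6485 (median 5820) at 72 h and 5829 to 6846 (median 6359) at 168 h. Unloaded and control libraries did not overlap at any time in either sex. Female Eif3c changes were 0.42 ± 0.08, 0.64 ± 0.08, 0.65 ± 0.08 and 0.35 ± 0.08 at 24, 48, 72 and 168 h (adjusted p of 0.000175, 1.12e-07, 1.67e-07 and 0.00481). Male Eif3c changes were 0.38 ± 0.06, 0.43 ± 0.05, 0.31 ± 0.05 and 0.41 ± 0.06 (adjusted p of 2.93e-06, 1.88e-07, 0.000147 and 1.98e-06). With the library set as a term the male changes were 0.40, 0.46, 0.43 and 0.41, called at 72 h (adjusted p = 0.00188) and 168 h (adjusted p = 1.18e-06). Its promoter is shown as that of a member that rose in all 8 comparisons with no overlap between groups, at chr7:126566367-126566616 of GRCm38.p6 on the minus strand, with the reverse complement of the ETS letters CCGGAAG in capitals.
Eif3c: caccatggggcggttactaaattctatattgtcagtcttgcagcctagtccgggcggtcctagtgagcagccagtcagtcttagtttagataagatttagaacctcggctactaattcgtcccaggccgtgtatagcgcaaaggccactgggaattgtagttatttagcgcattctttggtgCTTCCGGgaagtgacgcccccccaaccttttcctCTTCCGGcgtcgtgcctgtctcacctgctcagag
A start of Eif3c whose window lacked the ETS letters would not be shown. The letters occurred 2 times in the printed window. They were held by 11 members (Eif1ad, Eif1ax, Eif1b, Eif3c, Eif3d, Eif3g, Eif3l, Eif3m, Eif4e2, Eif5a and Eif5a2), and 3 of these, Eif1ad, Eif1ax and Eif5a2, were called in no comparison.

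Among the other eIF3 subunits, Eif3e was also called at all times in both sexes, with changes of 0.50, 0.63, 0.53 and 0.37 in females and 0.33, 0.43, 0.34 and 0.48 in males. Eif3l, a peripheral subunit, was called at 24, 48 and 72 h in females (0.55, 0.54 and 0.43) and at all male times (0.37, 0.37, 0.25 and 0.23). Eif3f, known in muscle as a target of the atrophy ubiquitin ligase Fbxo32, was called at no female time (0.18 to 0.39) and at all 4 male times (0.23 to 0.28). Its male calls ended at 24 h without 0 h replicate 2 (adjusted p = 0.0805) and at 72 and 168 h without 0 h replicate 4 (adjusted p of 0.118 and 0.068). In females Eif3h was called at 48 and 72 h (both 0.24) and Eif3i at 72 h (0.32). Eif3h and Eif3i were called at all 4 male times, with changes of 0.24 to 0.30 for Eif3h and 0.24 to 0.29 for Eif3i. The female Eif3h call at 48 h ended without 0 h replicate 8 (adjusted p = 0.0604), and that at 72 h without 72 h replicate 5 (adjusted p = 0.0763).

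Several eIF3 transcripts rose early and were not called at each later time. Eif3d, which can itself bind caps, was called at 24, 48 and 72 h in females (0.40, 0.45 and 0.37, the last not without 72 h replicate 4, adjusted p = 0.0873). In males Eif3d was called at 24 and 48 h (0.38 and 0.32) and not at 72 or 168 h (0.03 and 0.05). Eif3a, the largest subunit, was called at 48 h in females (0.83, adjusted p = 0.0315, and 0.0861 without 48 h replicate 7) and at 24 and 48 h in males (0.43 and 0.47). Eif3g was called at 24, 48 and 72 h in females (0.54, 0.51 and 0.48) and at 24 and 48 h in males (0.37 and 0.38). Eif3m was called at 24, 48 and 72 h in females (0.29, 0.51 and 0.36) and at 24, 48 and 168 h in males (0.24, 0.28 and 0.21, the last not without 168 h replicate 2, adjusted p = 0.0528). Eif3k, a subunit that some eukaryotes lack, was the only eIF3 member called nowhere, with changes of 0.18 to 0.31 in females and 0.13 to 0.22 in males.

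Eif3j1 and Eif3j2, near copies that encode the loosely attached subunit and may share reads, belong to the same complex. Eif3j1 had the highest change of any member. It rose by 1.17 ± 0.28 at 24 h and 1.05 ± 0.28 at 48 h in females (adjusted p of 0.00225 and 0.00302) and by 0.61 ± 0.10 and 0.59 ± 0.09 in males (adjusted p of 1.12e-05 and 9.4e-06). Eif3j2 was called at 48 h in females (0.92) and at 24, 48 and 168 h in males (0.39, 0.47 and 0.28). The male call of Eif3j2 at 168 h ended without 0 h replicate 4 (adjusted p = 0.105). Without female 72 h replicate 5, a library that stands apart, both were called in females at 72 h as well (0.84 for Eif3j1 and 0.79 for Eif3j2, adjusted p of 0.00666 and 0.00605).

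The eIF2 subunits were not called alike, and differences between their changes were not tested. Eif2s1, the alpha subunit whose phosphorylation shuts off initiation, was called against 0 h at no time. Its signal was 459.8 to 715 (median 652) at 0 h, 628 to 831 (median 708) at 24 h, 516 to 983 (median 689) at 48 h, 321 to 817 (median 596) at 72 h and 551 to 649 (median 575) at 168 h in females. Male Eif2s1 signal was 1153 to 1446 (median 1390) at 0 h, 1320 to 1670 (median 1507) at 24 h, 1214 to 1715 (median 1405) at 48 h, 1123 to 1344 (median 1236) at 72 h and 1194 to 1476 (median 1309) at 168 h. The groups overlapped throughout, with changes of 0.17, 0.20, -0.08 and -0.08 in females and 0.16, 0.09, -0.12 and -0.05 in males, although the male course was called (adjusted p = 0.00315). Eif2s2 (ENSMUSG00000074656, chromosome 2, 154713330 to 154734856), the beta subunit, rose. Its female signal was 1066 to 2706 (median 2347) at 0 h, 2462 to 3581 (median 2928) at 24 h, 1636 to 4095 (median 3185) at 48 h, 1164 to 3876 (median 3137) at 72 h and 2252 to 3242 (median 2735) at 168 h, with 1 low library at 0 h (replicate 7), 48 h (replicate 5) and 72 h (replicate 5), each a library that stands apart. Its male signal was 4098 to 5081 (median 4585) at 0 h, 5461 to 6608 (median 5937) at 24 h, 5228 to 7449 (median 5994) at 48 h, 4737 to 6162 (median 5608) at 72 h and 5479 to 6768 (median 6100) at 168 h, and no male library at 24, 48 or 168 h overlapped the controls. Female Eif2s2 changes were 0.56 ± 0.18, 0.57 ± 0.18, 0.51 ± 0.18 and 0.41 ± 0.19 at 24, 48, 72 and 168 h (adjusted p of 0.0233, 0.013, 0.0324 and 0.175). Male Eif2s2 changes were 0.38 ± 0.07, 0.42 ± 0.07, 0.28 ± 0.07 and 0.44 ± 0.07 (adjusted p of 4.96e-05, 7.11e-06, 0.0046 and 1.24e-05). Without female 0 h replicate 7 the female calls at 24 and 72 h ended (adjusted p of 0.0727 and 0.0983).

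The gamma subunit, which holds the GTP, is encoded in mice on both sex chromosomes. Eif2s3x, on the X chromosome, had a female signal of 1309 to 2042 (median 1895) at 0 h, 1668 to 2230 (median 2101) at 24 h, 1687 to 2625 (median 2190) at 48 h, 1226 to 2533 (median 2138) at 72 h and 1887 to 2038 (median 1968) at 168 h. Its male signal was 3006 to 3695 (median 3269) at 0 h, 3273 to 4280 (median 3895) at 24 h, 3506 to 4836 (median 3909) at 48 h, 3169 to 3877 (median 3549) at 72 h and 3455 to 4020 (median 3681) at 168 h. The groups overlapped at every time in both sexes, and it was called in females at 48 h (0.29 ± 0.10, adjusted p = 0.0283) and in males at 24 h (0.19 ± 0.06, adjusted p = 0.0188) and 48 h (0.22 ± 0.06, adjusted p = 0.0053). The female call ended without 0 h replicate 7 (adjusted p = 0.0883) and the male call at 24 h without 0 h replicate 2 (adjusted p = 0.0531). Eif2s3y, its Y-linked copy, was measured in males, with a signal of 1220 to 2371 (median 2045) at 0 h, 2157 to 2932 (median 2631) at 24 h, 2614 to 3634 (median 2878) at 48 h, 2001 to 2843 (median 2634) at 72 h and 2584 to 3021 (median 2795) at 168 h. All males at 48 and 168 h were above every control. Eif2s3y was called at all 4 times, with changes of 0.44 ± 0.10, 0.61 ± 0.10, 0.37 ± 0.10 and 0.56 ± 0.10 and adjusted p of 0.000666, 6.98e-06, 0.00785 and 7.95e-05. Per kilobase of exon, Eif2s3y made up a median of 36.2% of the summed Eif2s3x and Eif2s3y signal at 0 h, and 38.8%, 40.5%, 39.6% and 41.1% at 24, 48, 72 and 168 h. The copies are near-identical and may share reads, and the difference between their changes was not tested.

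**Figure D4:**
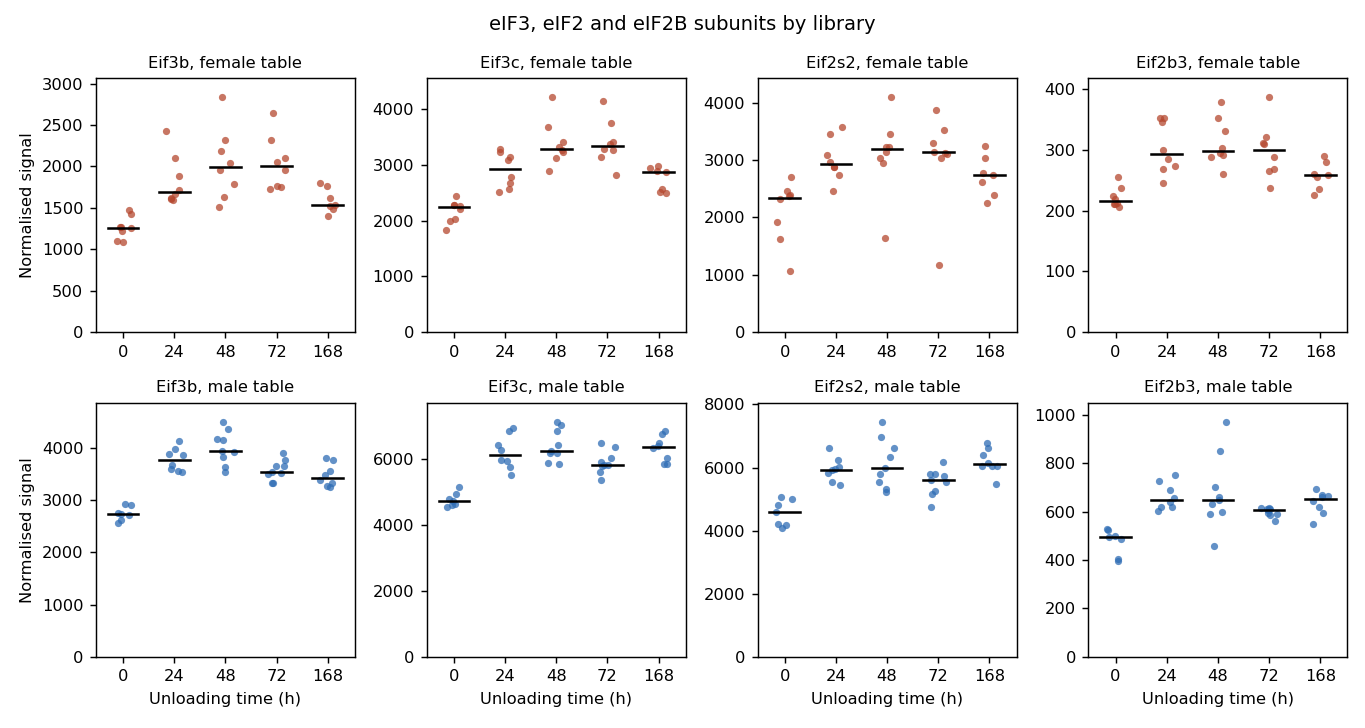
Each point is the normalised signal of 1 library (vertical axis, from 0, scaled per panel) by unloading time, for the eIF3 core subunits Eif3b and Eif3c, the eIF2 beta subunit Eif2s2 and the eIF2B gamma subunit Eif2b3, with females above and males below. Bars are medians. All unloaded Eif3c values exceed those at 0 h (1826 to 2444 in females and 4526 to 5133 in males), while single low Eif2s2 values stand out in females at 48 h (1636) and 72 h (1164).

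Of the eIF2B subunits, 4 of 5 were called higher at 24, 48 and 72 h in females and none at 168 h, and 3, 4, 2 and 3 of 5 at the 4 times in males. Of all genes 13.8%, 21.0%, 16.8% and 6.3% rose in females and 14.8%, 16.3%, 5.61% and 11.0% in males. Eif2b3, the gamma subunit that pairs with the catalytic Eif2b5, was scarce per kilobase of exon (median 33.1 in females and 76.2 in males at 0 h, the lowest member of the female table). Its signal was 206 to 255 (median 216) at 0 h, 245 to 353 (median 293) at 24 h, 261 to 379 (median 299) at 48 h, 237 to 387 (median 299) at 72 h and 226 to 290.5 (median 259) at 168 h in females. Male Eif2b3 signal was 397 to 527 (median 497) at 0 h, 600.4 to 751 (median 647) at 24 h, 457 to 970.2 (median 649) at 48 h, 562 to 616 (median 608) at 72 h and 548 to 693 (median 653) at 168 h. The groups did not overlap in females at 48 h nor in males at 24, 72 and 168 h. Female Eif2b3 changes were 0.44 ± 0.09, 0.49 ± 0.09, 0.42 ± 0.09 and 0.22 ± 0.09 at 24, 48, 72 and 168 h (adjusted p of 0.000451, 5.56e-05, 0.000573 and 0.141). Male Eif2b3 changes were 0.48 ± 0.09, 0.49 ± 0.09, 0.34 ± 0.09 and 0.42 ± 0.09 (adjusted p of 0.000125, 5.72e-05, 0.0101 and 0.00089). Eif2b1, the alpha subunit through which phosphorylated eIF2 is sensed, had a female signal of 528 to 708 (median 632) at 0 h, 628 to 829.7 (median 788) at 24 h, 692 to 1071 (median 828) at 48 h, 721 to 1046 (median 874) at 72 h and 619 to 849 (median 712) at 168 h. Male Eif2b1 signal was 915 to 1230 (median 1123) at 0 h, 1264 to 1550 (median 1444) at 24 h, 1135 to 1646 (median 1422) at 48 h, 985 to 1439 (median 1167) at 72 h and 1169 to 1445 (median 1308) at 168 h. The females at 72 h and the males at 24 h lay wholly above the controls. It was called at 24, 48 and 72 h in females (0.30, 0.47 and 0.47) and at 24, 48 and 168 h in males (0.35, 0.34 and 0.24, the last not without 0 h replicate 2, adjusted p = 0.0646).

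Eif2b5, the catalytic subunit, had a female signal of 859 to 1105 (median 943) at 0 h, 965 to 1513 (median 1144) at 24 h, 1027 to 1398 (median 1245) at 48 h, 1046 to 1500 (median 1325) at 72 h and 927 to 1165 (median 1030) at 168 h. Male Eif2b5 signal was 2048 to 2458 (median 2118) at 0 h, 2088 to 2584 (median 2390) at 24 h, 2232 to 2930 (median 2441) at 48 h, 2101 to 2381 (median 2266) at 72 h and 1919 to 2720 (median 2217) at 168 h. The groups overlapped at each time, and the rise was called at 24, 48 and 72 h in females (0.29 ± 0.09, 0.33 ± 0.09 and 0.41 ± 0.09, adjusted p of 0.0176, 0.00394 and 0.000643) and at 48 h in males (0.19 ± 0.06, adjusted p = 0.00882). Eif2b4, the delta subunit, was called at the same 3 times in females (0.54, 0.71 and 0.60) and at 24, 48 and 72 h in males (0.43, 0.35 and 0.26). The male Eif2b4 call at 72 h ended without 0 h replicate 2 (adjusted p = 0.113), and with the library set as a term its changes at 24 and 48 h were -0.01 and -0.05. Eif2b2, the beta subunit, was called only in males at 168 h (0.23), and not without 168 h replicate 4 (adjusted p = 0.0545).

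Among the remaining factors, 4, 4, 5 and 0 of 13 rose in females and 7, 6, 2 and 6 of 15 in males at 24, 48, 72 and 168 h. Their shares were 30.8%, 30.8%, 38.5% and 0% in females and 46.7%, 40%, 13.3% and 40% in males. Of all genes 13.8%, 21.0%, 16.8% and 6.3% rose in females and 14.8%, 16.3%, 5.61% and 11.0% in males. At 48 h the female share was near the 31.0% of genes with a mean signal of at least 500 that rose. Eif1, the small protein that guards the choice of start codon, was the most abundant member per kilobase of exon in both tables (median 2816 in females and 6160 in males at 0 h). Its signal was 5077 to 6391 (median 5908) at 0 h, 7218 to 16310 (median 8084) at 24 h, 7713 to 12557 (median 9978) at 48 h, 7718 to 13467 (median 9164) at 72 h and 5744 to 7938 (median 6978) at 168 h in females. Male Eif1 signal was 10600 to 14955 (median 12923) at 0 h, 15452 to 18149 (median 17571) at 24 h, 14128 to 22465 (median 17100) at 48 h, 11174 to 17448 (median 14570) at 72 h and 13607 to 18178 (median 15928) at 168 h. No female library at 24, 48 or 72 h and no male library at 24 h overlapped the controls. Female Eif1 changes were 0.68 ± 0.14, 0.83 ± 0.14, 0.75 ± 0.14 and 0.27 ± 0.14 at 24, 48, 72 and 168 h (adjusted p of 0.000348, 9.52e-06, 6.13e-05 and 0.235). Male Eif1 changes were 0.38 ± 0.09, 0.42 ± 0.09, 0.13 ± 0.09 and 0.28 ± 0.09 (adjusted p of 0.00106, 0.000281, 0.39 and 0.0184). The male call at 168 h ended without 0 h replicate 2 (adjusted p = 0.0606). Its partners in scanning, Eif1a and Eif1ax, were called nowhere, and its paralog Eif1b was called at 1 time, in males at 24 h (0.34).

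Eif2a, which can deliver initiator tRNA without GTP and is not a subunit of eIF2, had a female signal of 497 to 727 (median 670.5) at 0 h, 878 to 1067 (median 956) at 24 h, 706 to 1156 (median 974) at 48 h, 461 to 1022 (median 857) at 72 h and 659.6 to 926 (median 755) at 168 h. Male Eif2a signal was 1444 to 1763 (median 1642) at 0 h, 1646 to 2276 (median 2004) at 24 h, 1892 to 2736 (median 2157) at 48 h, 1587 to 2098 (median 1842) at 72 h and 1864 to 2339 (median 2053) at 168 h. Females at 24 h and males at 48 and 168 h lay wholly above the controls. It was called at 24, 48 and 72 h in females (0.59, 0.59 and 0.33) and at all 4 times in males (0.31, 0.42, 0.24 and 0.37). The calls at 72 h ended without female 72 h replicate 4 (adjusted p = 0.0777) and without male 0 h replicate 5 (adjusted p = 0.063). Eif2a overlaps Serp1 on the other strand by 72 bases. Eif6, which keeps the large ribosomal subunit from joining early, had a female signal of 302 to 461 (median 368) at 0 h, 415 to 886 (median 513) at 24 h, 455 to 859.9 (median 601) at 48 h, 459 to 959 (median 589) at 72 h and 401 to 547 (median 439) at 168 h. Male Eif6 signal was 473 to 644 (median 564) at 0 h, 586 to 866 (median 754) at 24 h, 626 to 910.4 (median 695) at 48 h, 623 to 827 (median 727) at 72 h and 563 to 931 (median 683) at 168 h. Its groups overlapped at each time, yet every unloaded library of both sexes lay above the control mean on the log2 scale. The rise was called at 24, 48 and 72 h in females (0.60 ± 0.15, 0.72 ± 0.15 and 0.75 ± 0.15) and at all 4 times in males (0.41 ± 0.10, 0.38 ± 0.09, 0.38 ± 0.09 and 0.33 ± 0.10).

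Eif5b, the GTPase that joins the subunits, had a female signal of 920.5 to 2400 (median 1916) at 0 h, 2240 to 3340 (median 2620) at 24 h, 1037 to 3540 (median 2719) at 48 h, 641 to 3460 (median 2646) at 72 h and 1565 to 2376 (median 2197) at 168 h. Male Eif5b signal was 4447 to 5427 (median 4757) at 0 h, 4593 to 6686 (median 5966) at 24 h, 5471 to 8066 (median 6107) at 48 h, 4349 to 6003 (median 5456) at 72 h and 5264 to 6086 (median 5811) at 168 h. Males at 48 h lay wholly above the controls, while the lowest female value at 72 h, 641, was under every control. It was called at 24 h in females (0.65 ± 0.24, adjusted p = 0.038, and 0.0993 without 0 h replicate 7) and at 24, 48 and 168 h in males (0.30 ± 0.07, 0.41 ± 0.07 and 0.27 ± 0.07). Without female 72 h replicate 5 Eif5b was also called in females at 72 h (0.63, adjusted p = 0.00857). Eif5, which triggers GTP hydrolysis on eIF2, was called at no female time (0.42 to 0.63). It was called in males at 24, 48 and 168 h (0.26, 0.36 and 0.38, the first not without 0 h replicate 2, adjusted p = 0.0644). Without female 72 h replicate 5 it was called in females at 72 h (0.71, adjusted p = 0.0122). Eif5a, the hypusine-bearing factor, was called in males at 24 h (0.30). Eif4a3, of the exon junction complex, was called in females at 72 h (0.35, and not without 72 h replicate 4, adjusted p = 0.0847).

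Eif4enif1, which carries eIF4E into the nucleus, was called in females at 48 and 72 h (0.35 and 0.24) and in males at 48 and 168 h (0.18 and 0.21). Without 1 library the calls ended in females at 72 h (72 h replicate 4, adjusted p = 0.105) and in males at 48 h (0 h replicate 2, 0.121) and 168 h (168 h replicate 8, 0.107). It overlaps Drg1 on the opposite strand over 42197 bases, and strand use in the counting is not given, so reads of the pair may be mixed. Eif1ad, Eif2d, Eif5a2 and Eif4a3l2 were called at no time, and the last 2 had the lowest signal of the male table's members (71.3 to 187 and 43.7 to 143 over all libraries).

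Between consecutive times few members were called except in males from 48 to 72 h, where the median over the members was -0.12. The median was also below 0 in females from 72 to 168 h (-0.10, with 35 of 45 members below 0). In males 0 members were called between 24 and 48 h by limma (0.0156% of all genes). At an unadjusted p under 0.05 there were 5 members and 1224 of all 12853 genes. From 72 to 168 h 0 were called (0.296%, of which 0.124% higher and 0.171% lower). Here 7 members and 1937 of all 12853 genes had an unadjusted p under 0.05. From 48 to 72 h 1 rose and 12 fell (8.81% of all genes called, 3.45% higher and 5.36% lower). Those that fell were Eif3a, Eif3b, Eif3d, Eif3g, Eif3j1, Eif3j2, Eif3m, Eif2s1, Eif4a1, Eif4a2, Eif1 and Eif5b, by 0.16 to 0.48, and Eif4a1 fell most (-0.48 ± 0.09, adjusted p = 0.00113). Eif4e was the one that rose (0.25 ± 0.07, adjusted p = 0.0212). The same 48 h libraries enter the changes at 48 h against 0 h, so this step is not a separate instance of opposite movement. This step lies between sets, and with the set as a term 0 of the 48 were called. At an unadjusted p under 0.05 there were then 1 member and 398 of all 12853 genes. In females, Eif4b (0.39 ± 0.12) and Eif4g1 (0.39 ± 0.11) rose from 24 to 48 h, where 6.66% of all genes were called (3.12% higher and 3.54% lower). Eif4e2 fell from 48 to 72 h (-0.28 ± 0.07), where 0.596% were called (0.352% higher and 0.244% lower). Eif3c (-0.30 ± 0.08) and Eif1 (-0.48 ± 0.14) fell from 72 to 168 h, where 3.56% were called (1.34% higher and 2.22% lower). The last step lies within a set. Without the libraries that stand apart, 0, 0 and 5 members were called at these steps, where 2.91%, 0.497% and 6.42% of all genes were called. At an unadjusted p under 0.05 there were then 8, 5 and 24 members, and 2021, 1391 and 2594 of all 11068 genes. The median over the members for the last step was then -0.22.

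The changes of females and males were compared directly in 1 model of the 10964 genes found in both tables. The difference, female change minus male change, was called for 4 of 45 members at 72 h, where 2.44% of all genes were called (1.64% with a higher and 0.803% with a lower female change). By the same limma test 0 members were called at 24 h (0.0547% of all genes, 0.0365% higher and 0.0182% lower), at 48 h (0.301%, 0.237% higher and 0.0638% lower) and at 168 h (0.0182%, 0.00912% in each direction). At those 3 times 2, 8 and 1 of the 45 members had an unadjusted p under 0.05, as did 651, 1329 and 424 of all 10964 genes. The members were thus below the share of all genes at 24 and 168 h. At 72 h the female rise was larger for Eif4g3 (0.78 in females and 0.17 in males, difference 0.61 ± 0.15, adjusted p = 0.0144) and Eif1 (0.75 and 0.13 likewise, difference 0.63 ± 0.16, adjusted p = 0.0205). It was also larger for Eif3c (difference 0.34 ± 0.09, adjusted p = 0.0335) and Eif2b5 (difference 0.36 ± 0.10, adjusted p = 0.0447). The female change exceeded the male change for 31, 38, 39 and 20 of the 45 at 24, 48, 72 and 168 h, and the median difference was 0.07, 0.15, 0.21 and -0.01, against 0.03, 0.04, 0.02 and 0.04 over all genes. Genes with a mean signal of at least 500 had median differences of 0.04, 0.08, 0.07 and 0.03. With only such genes in the test, 4 of 39 members were called at 72 h. Of all 3853 such genes 226 were called (190 with a higher and 36 with a lower female change). The members with the smallest p at 24 h were Eif4g3 (0.34 ± 0.15), Eif2a (0.28 ± 0.14) and Eif3j1 (0.56 ± 0.30). At 48 h they were Eif4g3 (0.54 ± 0.15), Eif1 (0.41 ± 0.16) and Eif4b (0.36 ± 0.14), and at 168 h Eif4g3 (0.42 ± 0.15), Eif1ad (0.19 ± 0.11) and Eif2b3 (-0.21 ± 0.13). Their adjusted p lay between 0.0929 and 1. The female and male 72 h groups also differ in depth (medians 6.21 and 40.4 M reads) and in their library sets, and the part of these in the difference was not tested. Without the female libraries that stand apart 9 members were called at 72 h, where the share of all genes called was 7.42%.

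**Figure D5:**
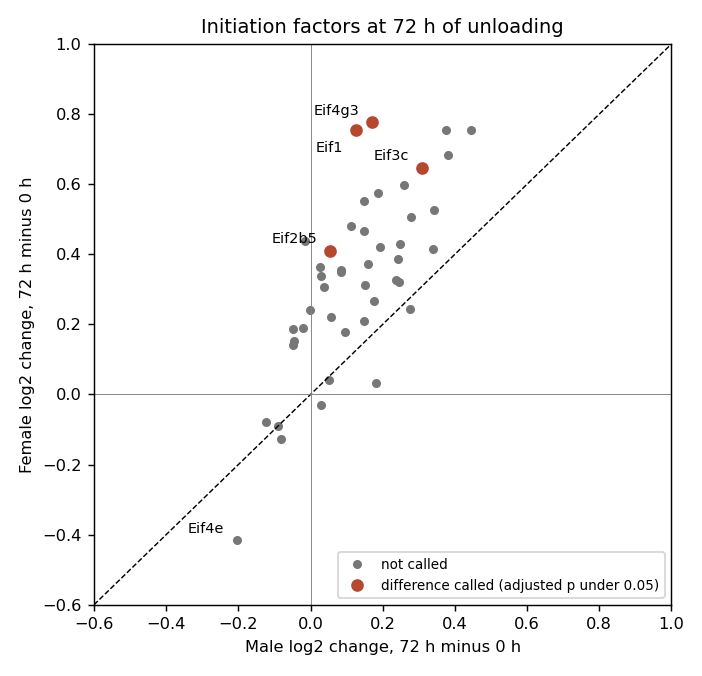
Each point is an initiation factor, with its log2 change at 72 h against 0 h in females (vertical axis) and in males (horizontal axis), and the dashed line marks equal changes. Coloured points are the 4 whose female and male changes differed at an adjusted p under 0.05. Of the 45 members 39 lie above the line, and Eif4e lies below it (-0.41 in females and -0.20 in males).

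The transcripts of regulators that act on these factors moved both ways. Of 34 measured, 6, 13, 10 and 4 rose and 1, 2, 1 and 1 fell in females at 24, 48, 72 and 168 h, and 12, 11, 4 and 7 rose and 4, 3, 3 and 4 fell in males. Of all genes 13.8%, 21.0%, 16.8% and 6.3% rose in females and 14.8%, 16.3%, 5.61% and 11.0% in males. Genes that fell made up 10.9%, 17.1%, 13.2% and 4.38% in females and 14.4%, 14.7%, 5.22% and 11.5% in males. Falls of regulators were thus below the share of all genes in females at each time and in males at 24 and 48 h. The transcript of Eif4ebp1, which binds and blocks eIF4E, had a female signal of 338 to 525.9 (median 435) at 0 h, 912 to 1692 (median 1322) at 24 h, 947 to 4685 (median 1893) at 48 h, 970.3 to 3349 (median 1339) at 72 h and 609 to 1119 (median 687) at 168 h. Male Eif4ebp1 signal was 517 to 779.7 (median 617) at 0 h, 1276 to 2543 (median 1556) at 24 h, 1239 to 3372 (median 1505) at 48 h, 784 to 1546 (median 1081) at 72 h and 945 to 1967 (median 1074) at 168 h. Unloaded libraries of both sexes lay above every control at each time. The changes were 1.55, 2.11, 1.82 and 0.83 in females (adjusted p of 1.77e-05, 3.6e-08, 8.25e-07 and 0.0291) and 1.42, 1.52, 0.85 and 0.85 in males (adjusted p of 1.09e-06, 1.7e-07, 0.00258 and 0.00141). Mknk2, a kinase that phosphorylates eIF4E, had changes of 1.05, 1.87, 1.61 and 0.80 in females (called at all 4 times) and 0.73, 0.91, 0.42 and 0.28 in males (called at 24 and 48 h). Eif2ak2, the eIF2 kinase PKR, fell at all 4 times in males (-0.87, -0.74, -0.63 and -0.48) and was called at no time in females (-0.44, -0.50, -0.73 and -0.24). The change of Mknk2 differed between the sexes at 72 h (female minus male 1.19 ± 0.27, adjusted p = 0.00911). The difference of Eif4ebp1 at 72 h was 0.97 ± 0.31 (adjusted p = 0.0761), and that of Eif2ak2 lay between -0.10 and 0.43 with adjusted p of 0.804 or more.

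Of the 9 elongation factors, 1, 2, 2 and 2 rose in females and 3, 2, 2 and 1 in males, and 1 fell in females at 48 and at 72 h. For these lists too, 13.8%, 21.0%, 16.8% and 6.3% of all genes rose in females and 14.8%, 16.3%, 5.61% and 11.0% in males. Genes that fell made up 10.9%, 17.1%, 13.2% and 4.38% in females and 14.4%, 14.7%, 5.22% and 11.5% in males. Elongation factors that rose were near or below that share in females at 24 and 48 h and in males at 168 h. Eef2, the translocase, was called at every time (0.51, 0.72, 0.64 and 0.48 in females and 0.41, 0.54, 0.48 and 0.48 in males). Eef2k, the kinase that inhibits it, rose in females at 48, 72 and 168 h (0.51, 0.64 and 0.61) and in males at 72 h (0.34). Eef1a1 was called in males at 24 and 48 h (0.22 and 0.28) and Eef1a2, the form of mature muscle, in males at 24 h (0.22), and neither in females. Of 4 measured termination and rescue factors 1, 2, 2 and 0 rose in females and 0, 1, 0 and 1 in males. Etf1, the release factor, was among them at 24, 48 and 72 h in females (0.50, 0.59 and 0.55) and at 48 and 168 h in males (0.23 and 0.20), and Hbs1l, of ribosome rescue, at 48 and 72 h in females (0.18 and 0.20). The initiation and elongation factors of mitochondria mostly fell where they were called. Of 6, 1, 2, 1 and 1 fell in females, with Gfm2 at each time (-0.22, -0.26, -0.29 and -0.37), and 4 fell in males at 168 h, among them Gfm1 (-0.26), Gfm2 (-0.30) and Tufm (-0.41), and Gfm1 rose in females at 48 h (0.23). Of the cytosolic ribosomal proteins 24, 16, 27 and 3 of 83 rose in females and 11, 16, 4 and 30 of 84 in males, while 0, 2, 1 and 0 fell in females and 0, 0, 0 and 1 in males. The shares that rose were 28.9%, 19.3%, 32.5% and 3.61% in females and 13.1%, 19.0%, 4.76% and 35.7% in males. Against the shares of all genes that rose, these were near or below in females at 48 and 168 h and in males at 24, 48 and 72 h. Their median changes were 0.30, 0.22, 0.29 and 0.19 in females and 0.14, 0.16, 0.13 and 0.25 in males. The ribosomal proteins with the smallest course p were Rpl36al (0.50, 0.48, 0.51 and 0.05, called at 24, 48 and 72 h) and Rps18 (0.12, 0.34, 0.58 and 0.22, called at 48 and 72 h) in females. In males they were Rpl22 (0.35, 0.41, 0.32 and 0.43) and Rpl4 (0.17, 0.22, 0.21 and 0.39), both called at all 4 times.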

How the data were processed

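Gastrocnemius RNA of unloaded and control mice was sequenced, and 2 tables, 1 per sex, hold a normalised signal per gene and library. The deposited signal values are reads divided by a library factor, as the values show. The submitters' processing notes name STAR 2.7.8a, DESeq2 and Partek, and the builds mm10 and mm39. Of 48 members looked up in GENCODE vM21 (mm10), 1 shared a start or end, so the tables' coordinates are not those of mm10. The fold and p-value columns quoted from the authors' deposited table are theirs. Every library column was matched to a sample (0 left over). Whole reads were recovered for only 53.9% to 71.7% of low values (tolerance 0.03), so no count model was run, and depths are estimates.

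Changes were tested with limma 3.58.1 (R 4.3.3) on log2(signal + 1), with trend and robust options and 1 model of 5 times per table. p-values were adjusted by Benjamini-Hochberg over all genes of the table and called under 0.05, and values after ± are SE. The female minus male change came from 1 model of the 10964 shared genes. Lowest, median and highest signal are given for 19 members, namely the 2 with the smallest course p of each role group in each table and Eif2s3x, Eif2s3y, Eif4a1, Eif4a2, Eif4e, Eif4g1, Eif2b5, Eif1 and Eif6. Other members are given by their changes. For the sex difference, each called member and the 3 with the smallest p per time are named. Of the other lists, Eif4ebp1, Eef1a1, Eef1a2, Eef2 and the 2 genes with the smallest course p per list and table are named. Exon lengths came from GENCODE vM21 and promoters from RefSeq (GRCm38.p6). Overlapping genes may share reads, since strand use in the counting is not given in the sources used here. Near copies (Eif2s3x and Eif2s3y, Eif3j1 and Eif3j2, Eif4a1 and Eif4a2) may share reads because their sequences are alike. The members and lists were chosen with earlier results of these data known. The limma fit of males at 24 h and the recovery of library factors were tested on simulated data. Alternatives were a pseudocount of 10, a mean of at least 500, other scalings, array weights, library sets and left-out libraries.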

Additional observations from a re-analysis of the deposited data

Results flagged for a closer look

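Single libraries stood far from the rest of their group for 9 of the 185 groups of values tested. Chance alone gives about 1 in 20, which is near the rate found. The same libraries recur across genes, so the groups are not independent. In females, Eif2s2 was lowest in 48 h replicate 5 (1636, others 2950 to 4095) and 72 h replicate 5 (1164, others 3042 to 3876). Eif2s3x was lowest in 72 h replicate 5 (1226, others 1954 to 2533) and in 0 h replicate 7 (1309, others 1725 to 2042). These 4 values come from libraries that stand apart in rank correlation. Eif4a1 was highest in female 72 h replicate 4 (1464, others 639 to 929), and Eif4g3 in female 48 h replicate 7 (6556, others 4345 to 5206). In males, 48 h replicate 2 was highest for Eif2a (2736, others 1892 to 2264) and for Eif4a2 (28140, others 14375 to 20085). Male 168 h replicate 4 was lowest for Eif4g1 (18833, others 22974 to 26420).

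The change at 72 h differed between the sexes, female minus male, for Eif1 (0.63), Eif4g3 (0.61), Eif2b5 (0.36) and Eif3c (0.34) by limma's moderated test of the difference.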

How the results depend on the processing

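No paired analysis was possible because the labels carry no replicate numbers and the numbers used here only name libraries. A pseudocount of 10 changed no call of a member, and scaling to the library total moved the median of all genes by over 0.1 only in females from 24 to 48 h (by 0.105, where it called 6 members), among the 2 scalings tried. Counts of members called are given, and brackets hold the share or number of all genes called under the same setting. With array weights the count was 22 for female 168 h against 0 h (28.2%) and 9 for female 168 h against 72 h (7.62%). It was 0 for female 48 h against 24 h and 72 h against 48 h (2.58% and 1.86%). For the female minus male change at 48 and 72 h it was 1 and 8 (1.23% and 8.87%). In males it was 1 for 168 h against 72 h (4.9%) and 7 for 72 h against 48 h (6.43%). Without the libraries that stand apart it was 10, 5, 0 and 0 for those 4 female comparisons (12.8%, 6.42%, 2.91% and 0.497%) and 9 for the female minus male change at 72 h (7.42%). Scaling to the library total gave 4 for female 168 h against 72 h (3.35%) and 6 for 48 h against 24 h (9.31%). It gave 0 for female 72 h against 48 h (0.506%) and 7 for male 72 h against 48 h (928 of 12853 genes). Quantile normalization gave 0 for female 72 h against 48 h (38 of 11068 genes) and 2 for the female minus male change at 72 h (196 of 10964 genes). At female 168 h against 0 h it called 4 members higher and 1 lower (11.4%). A mean of at least 500 gave 5 of 39 for female 168 h against 72 h (7.53%).

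With the library set as a term, male counts were 0, 0 and 5 at 24, 48 and 72 h against 0 h, 0 for 72 h against 48 h and 13 over the course. Of all 12853 genes 4, 37, 557, 0 and 1588 were called, in the same order. The change then turned to -0.0190 for Eif4a2 and -0.00664 for Eif2b4 at 24 h, and to -0.0628 for Eif4enif1 and -0.0525 for Eif2b4 at 48 h. With only the 72 h libraries of the 0 h set, 5 members were called at 72 h (516 of 12853 genes). The cause was not tested.

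Leaving out 1 library at a time gave 20 to 25, 24 to 30, 17 to 28 and 4 to 7 members in females and 26 to 32, 30 to 33, 11 to 16 and 17 to 25 in males at 24, 48, 72 and 168 h, and 24 to 30 and 30 to 37 over the course. It ended 31 calls of single members and added 45. The shares of all genes called in these fits are not given here. Shifts in the members' counts therefore cannot be set against shifts over all genes.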
